A study of Gallus gallus with 50 samples.

Results

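SOX10 is a transcription factor of the SOXE group that is known in vertebrates for its expression in neural crest cells as they leave the neural tube and migrate. Neural crest cells arise at the border of the neural plate and later give rise to facial cartilage, pigment cells and peripheral neurons and glia, and SOX10 is required there for glial and pigment cell lineages. In chick heads it is also known from the otic placode, the precursor of the inner ear. It is described here as 1 gene of the 24356 in the deposited count table. It was chosen as the table row ENSGALG00000012290, the SOX10 locus, for its levels in the 12 groups, and it is among the 15737 genes that passed the filter on low counts. These levels are a description and carry no test.

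The study sorted cells from dissected heads of chicken embryos that had been electroporated as whole embryos, outside the egg, with the reporter ptk-TFAP2AE1-GFP. All groups carried this reporter, whose GFP is under an enhancer of TFAP2A, and no genotype, strain or drug separated them. The 6 groups NC_6 to NC_16 hold GFP-positive cells, labelled neural crest, and the 6 groups WE_6 to WE_16 hold GFP-negative cells of the head, labelled whole embryo. Each fraction was taken at the Hamburger-Hamilton (HH) stages HH6, HH8, HH10, HH12, HH14 and HH16, the standard morphological stages of chick development, and about 20 heads were pooled for a sample. A crest cell that had not taken up the reporter was sorted as GFP-negative, so the GFP-negative groups are not free of crest by design.

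The authors' filtered table keeps 42 of 50 libraries, which is 3 in each fraction at most stages, 4 in each at HH12 and 5 in each at HH16. Apart from the pool of heads that a title names, the labels do not say whether replicates were independent collections. Kept libraries held 4869937 to 29316689 counted reads. Each library was compared with the group means over the 2000 most variable genes other than SOX10. Of the kept libraries, 31 correlated best with their own group, 33 with a group of their own stage and 40 with a group of their own fraction. NC_14 replicates 1 and 3 were nearest NC_12 (Pearson r = 0.924 against 0.918 for their own group, and 0.90 against 0.831). NC_12 replicate 3 was nearest NC_10 (0.9255 against 0.896) and NC_12 replicate 4 nearest NC_14 (0.915 against 0.910). WE_6 replicate 1 was nearest WE_8 (0.8725 against 0.834) and WE_8 replicate 1 nearest WE_10 (0.865 against 0.8625). NC_16 replicates 1 and 3 were nearest WE_16 (0.871 against 0.840, and 0.690 against 0.687). The widest gaps among kept GFP-negative libraries were those of WE_12 replicate 3, nearest WE_14 (0.916 against 0.755), and WE_14 replicate 3, nearest WE_12 (0.947 against 0.839). WE_10 replicate 3, nearest WE_12 (0.912 against 0.883), shares its pool with NC_10 replicate 3, a library outside the filtered table whose profile goes against its label. These correlations are across genes, which are not independent replicates. No other marker gene could be checked, because the files do not pair identifiers with gene names.

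On GRCg6a the SOX10 row spans chromosome 1, 51055215 to 51064410, on the plus strand, which is 9196 bases. Its 4 exons measure 170, 429, 266 and 2497 bases, together 3362. No other gene of the table overlaps it. The RefSeq gene table, which is on GRCg7b, places SOX10 on the same chromosome with a span of 9171 bases, between PICK1 and POLR2F among protein-coding genes.

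SOX10 was lower at HH6 and HH8 than from HH10 on in both fractions, and at every stage it was higher in GFP-positive than in GFP-negative cells. Levels are given in CPM, read counts scaled for the size of each library. The mean of the NC groups stood at 13.8 ± 18.4 CPM at HH6, 42.5 ± 30.9 at HH8, 385 ± 226 at HH10, 651 ± 224 at HH12, 407 ± 286 at HH14 and 322 ± 210 at HH16 (SD, n = 3, 3, 3, 4, 3 and 5). The mean of the GFP-negative groups stood at 1.18 ± 0.434 CPM at HH6, 4.35 ± 1.76 at HH8, 39.5 ± 9.53 at HH10, 60.3 ± 33 at HH12, 49.3 ± 8.13 at HH14 and 75.3 ± 17.9 at HH16 (SD, same n). The NC mean was highest at HH12 and the GFP-negative mean at HH16. In bulk samples, fewer cells of a type and less RNA per cell cannot be told apart.

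**Figure D1:**
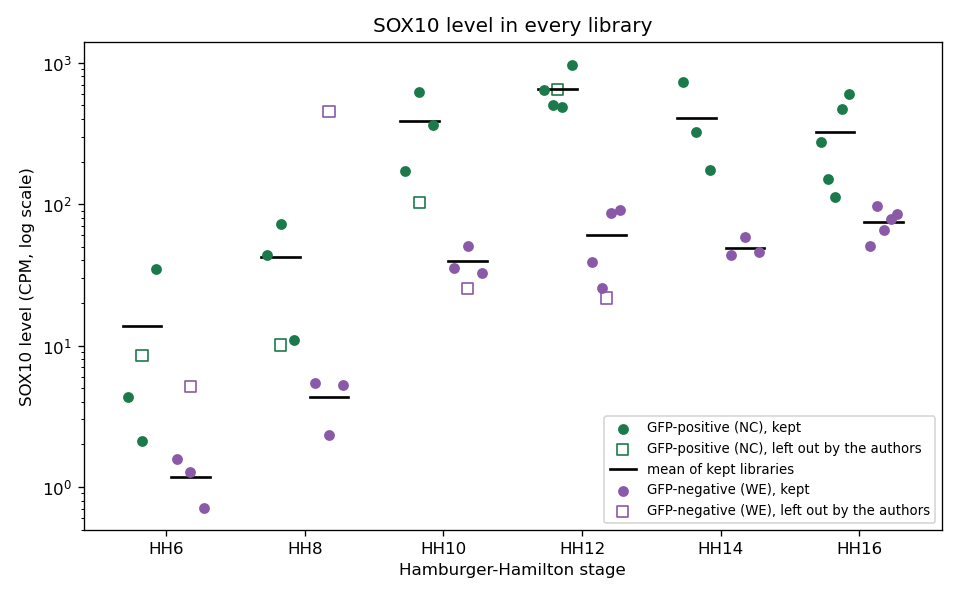
SOX10 level in CPM (log axis) by stage, with filled circles for the kept libraries, open squares for the libraries left out by the authors and bars for the means of the kept libraries. The NC libraries of each stage lie above the kept GFP-negative libraries of that stage, and the left-out library labelled WE_8 replicate 4 stands at 452 CPM.

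At HH6 the NC libraries gave 4.33, 2.12 and 35 CPM for replicates 1 to 3, from 83, 39 and 627 reads. The GFP-negative libraries gave 1.57, 1.27 and 0.711 CPM, from 26, 21 and 3 reads. The other genes of WE_6 replicate 1, the highest of these, were nearest WE_8. NC_6 replicate 3 stood apart from the other NC libraries and within the range of the NC libraries of HH8, although its other genes correlated best with its own group. The groups did not overlap, but by counting error alone the lower ones are close: the 95% Poisson interval of the 39 reads runs from 27.7 to 53.3 and that of the 26 reads from 17 to 38.1. The log2 fold change between the fractions was 3.42 ± 0.85 (SE), 1.33 ± 0.76 without NC_6 replicate 3, 2.45 ± 2.04 with limma voom and 2.21 ± 0.81 with the pool of heads as a block.

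At HH8 the NC libraries gave 43.9, 72.7 and 10.9 CPM (644, 1339 and 196 reads) and the GFP-negative libraries 5.46, 2.32 and 5.27 CPM (75, 33 and 90 reads). The lowest NC library, replicate 3, was 2.08-fold above the GFP-negative library of the same pool, and replicate 2 was 31.4-fold above its own. The log2 fold change was 3.29 ± 0.77, and 2.65 ± 0.79 without NC_8 replicate 2.

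At HH10 the NC libraries gave 170.5, 620 and 364 CPM for replicates 1, 2 and 4, and the GFP-negative libraries 35.4, 50.3 and 32.6 CPM for replicates 2, 3 and 4. No library of HH10 overlapped with one of HH8 in its own fraction. The share of all tested genes without overlap between these stages was not counted. The log2 fold change from HH8 to HH10 was 3.18 ± 0.75 in NC and 3.18 ± 0.77 in GFP-negative cells, at places 163 and 134 from the highest of 15737 tested genes. These were the largest steps between neighbouring stages in their fractions, although without NC_6 replicate 3 the NC step from HH6 to HH8 was 3.72 ± 0.78. Without NC_8 replicate 2 the NC step from HH8 was 3.81 ± 0.91. Between the fractions the log2 fold change at HH10 was 3.28 ± 0.75, and 3.50 ± 0.92 without WE_10 replicate 3.

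At HH12 the NC libraries gave 644, 502, 487 and 969.5 CPM for replicates 1 to 4, up to 19223 reads in 1 library. The other genes of NC_12 replicate 3 were nearest NC_10, and those of replicate 4, the highest, were nearest NC_14. The GFP-negative libraries gave 39, 25.4, 86.3 and 90.5 CPM for replicates 1, 2, 3 and 5. The GFP-negative libraries formed a lower and a higher pair. The lower pair came from the 2 pools of a single sequencing set, meaning libraries whose descriptions begin with the same number. The higher pair includes WE_12 replicate 3, whose other genes were nearest WE_14. The log2 fold change between the fractions was 3.43 ± 0.66, and 3.65 ± 0.75 without that library.

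At HH14 the NC libraries gave 726, 323 and 174 CPM and the GFP-negative libraries 43.3, 58.5 and 46 CPM. The GFP-negative libraries lay close together while the NC libraries covered a 4.17-fold range. The log2 fold change was 3.05 ± 0.75, and 2.34 ± 0.75 without NC_14 replicate 1. The other genes of NC_14 replicates 1 and 3 were nearest NC_12, and those of WE_14 replicate 3 nearest WE_12.

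At HH16 the NC libraries gave 276, 149, 112, 469 and 602 CPM for replicates 1 to 5, and the GFP-negative libraries 50.2, 96.4, 65.8, 78.4 and 85.4 CPM. The groups came closest here, the lowest NC library lying at 112 and the highest GFP-negative library at 96.4 CPM. NC_16 replicate 3, the lowest, is also a library whose other genes were nearest WE_16. The log2 fold change was 2.1 ± 0.56, 2.30 ± 0.57 without that library, and 2.43 ± 0.68 without the 11 kept libraries nearest another group, a choice made after seeing the data. The half-width of the 95% counting interval was at most 5.75% of the value in the NC libraries from HH10 on. In the GFP-negative libraries of those stages it was at most 12.1%. These intervals cover counting error only.

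The fractions did not overlap at any of the 6 stages. Among the 15737 tested genes, every NC library exceeded every GFP-negative library for 7.4% at HH6, 11.8% at HH8, 7.51% at HH10, 4.07% at HH12, 5.37% at HH14 and 0.483% at HH16, and at all 6 stages for 0.0318%, which is 5 genes with SOX10 among them. Averaged over the stages the log2 fold change of SOX10 was 3.09 ± 0.30, the 5th highest of all tested genes. Since SOX10 was chosen on these values, its place is a description. The difference lay between 3.28 and 3.43 on the log2 scale from HH6 to HH12 and was lowest at HH16, a change that was not tested for the same reason. This course rested on NC_6 replicate 3, without which the HH6 difference of 1.33 was below the 2.1 of HH16. With the pool as a block the differences from HH6 to HH12 ran from 2.21 to 3.94. In that fit a library without a kept partner from its pool does not inform the difference, which leaves 2 pools at HH10 and 3 at HH12.

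Pairing the fractions by pool gave the same direction in 19 of 19 pools with both libraries kept. This direction follows from the lack of overlap at every stage, so the pairing adds only the sizes of the ratios. The NC library was between 1.55-fold and 49.3-fold above the GFP-negative library of its pool, with a median of 5.98-fold. The widest ratio belonged to NC_6 replicate 3 and the narrowest to NC_16 replicate 2. By stage the median ratio was 2.76-fold at HH6, 8.05-fold at HH8, 7.99-fold at HH10, 16.5-fold at HH12, 5.51-fold at HH14 and 5.49-fold at HH16. The HH10 value rests on 2 pools, of 4.815-fold and 11.2-fold. The 3 pools of HH12 lay close together, from 11.2-fold to 19.8-fold. The 3 pools of HH6 gave 1.67-fold, 2.76-fold and 49.3-fold. The 5 pools of HH16 gave 1.55-fold, 1.70-fold, 5.49-fold, 5.98-fold and 7.05-fold. The GFP-negative level was 6.05% of the GFP-positive level in the median HH12 pool and 18.2% in the median HH16 pool.

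**Figure D2:**
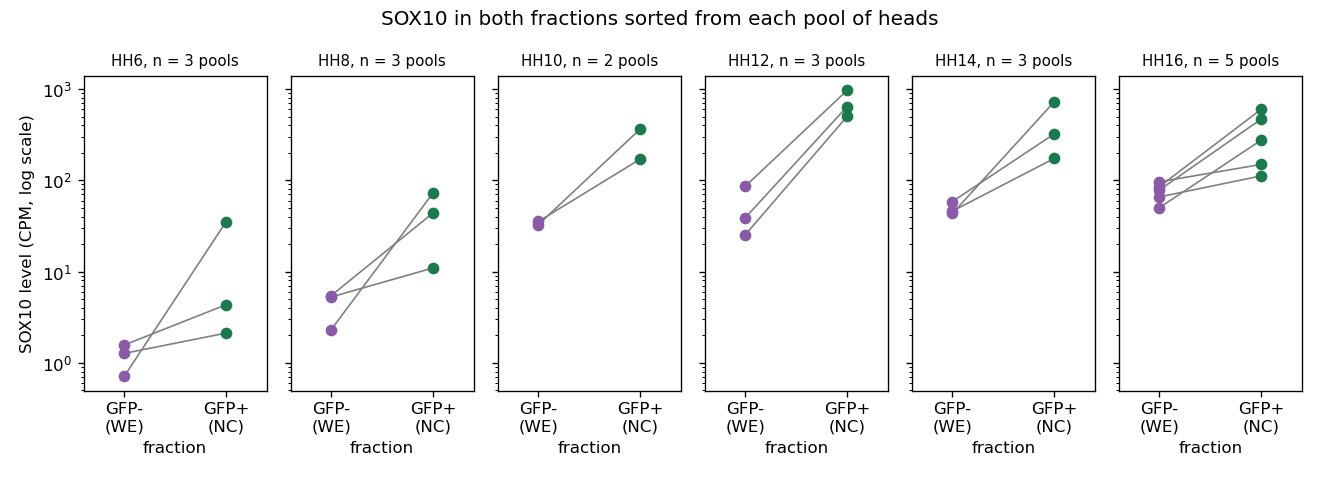
SOX10 level in CPM (log axis) in the GFP-negative and GFP-positive library of each pool, joined by a line, in 1 panel per stage. The line rises in 19 of 19 pools, as the lack of overlap at every stage requires. It rises least in a pool of HH16 (1.55-fold) and most in a pool of HH6 (49.3-fold, with 3 reads of SOX10 in the GFP-negative library).

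In the order of the 12 group means, 9 of the 11 neighbouring pairs had overlapping libraries. The order ran from WE_6 and WE_8 through NC_6, WE_10, NC_8, WE_14, WE_12 and WE_16 to NC_16, NC_10, NC_14 and NC_12. The 2 breaks lay between WE_6 and WE_8, and between WE_16 and NC_16. The order among the NC groups from HH10 to HH16 was within the spread of their libraries. Among the GFP-negative groups of those stages, WE_12 overlapped with its neighbours WE_14 and WE_16, while NC_8 lay between WE_10 and WE_14. WE_10 and WE_16, the lowest and the highest of them, met only at their ends. Their libraries ran from 32.6 to 50.35 CPM (mean 39.5, SD 9.53) and from 50.24 to 96.4 CPM (mean 75.3, SD 17.9). Overlap of neighbours thus does not place that whole order within the spread. NC_8 overlapped with the later GFP-negative groups, and NC_6 with WE_8. The share of all tested genes without overlap between these neighbouring pairs was not counted. Between the fractions of a stage with 3 libraries each, 5.37% to 11.8% of all tested genes had every NC library above every GFP-negative one.

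After HH10 the libraries of neighbouring stages overlapped in both fractions. In NC the log2 fold change was 0.76 ± 0.66 from HH10 to HH12, -0.68 ± 0.65 from HH12 to HH14 and -0.34 ± 0.61 from HH14 to HH16. The last of these changed sign to 0.37 ± 0.70 without NC_14 replicate 1, and to 0.34 ± 1.11 without the 11 libraries nearest another group. That second choice left only replicate 2 in NC_14. Without NC_14 replicate 1 the step from HH12 to HH14 was -1.40 ± 0.76. In GFP-negative cells the steps were 0.61 ± 0.66, -0.29 ± 0.65 and 0.61 ± 0.63. Before HH10, the step from HH6 to HH8 was 1.62 ± 0.72 in NC and 1.76 ± 0.85 in GFP-negative cells. The NC libraries of those stages overlapped while the GFP-negative libraries did not, and the share of all tested genes without such overlap was not counted. That NC step was 0.99 ± 0.76 without NC_8 replicate 2, 3.72 ± 0.78 without NC_6 replicate 3 and 2.27 ± 1.11 with limma voom.

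Sequencing set is the name used here for the first number of the sample descriptions. The labels do not say what that number stands for. The sets went with different courses of SOX10 in GFP-positive cells, and their part in them was not tested. In set 9235 each stage was above the one before it from 2.12 CPM at HH6 to 726 at HH14, and HH16 stood at 149. In set 9236 it was 35 at HH6, 10.9 at HH8, 620 at HH10, 969.5 at HH12 and 323 at HH14. In set 9846 it was 364 at HH10, 174 at HH14, and 469 and 602 in the libraries of HH16. The 3 sets thus placed their highest kept GFP-positive library at HH14, HH12 and HH16, with 1 library per stage apart from HH16 in set 9846. Set 9236 had no GFP-positive library at HH16, and set 9846 no kept one at HH12. The left-out NC_12 replicate 5 of set 9846 stood at 645 CPM, against 616 for NC_16 replicate 5, both scaled over all 50 libraries. The HH16 place of that set thus depended on leaving it out. In the sets with libraries of HH6 and HH8, those libraries lay below every later GFP-positive one. In GFP-negative cells at HH12, set 10406 held the 2 libraries of 39 and 25.4 CPM, against 86.3 in set 9236 and 90.5 in set 9846. With the set as a covariate the log2 fold change between the fractions ran from 2.18 at HH16 to 3.64 at HH12.

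**Figure D3:**
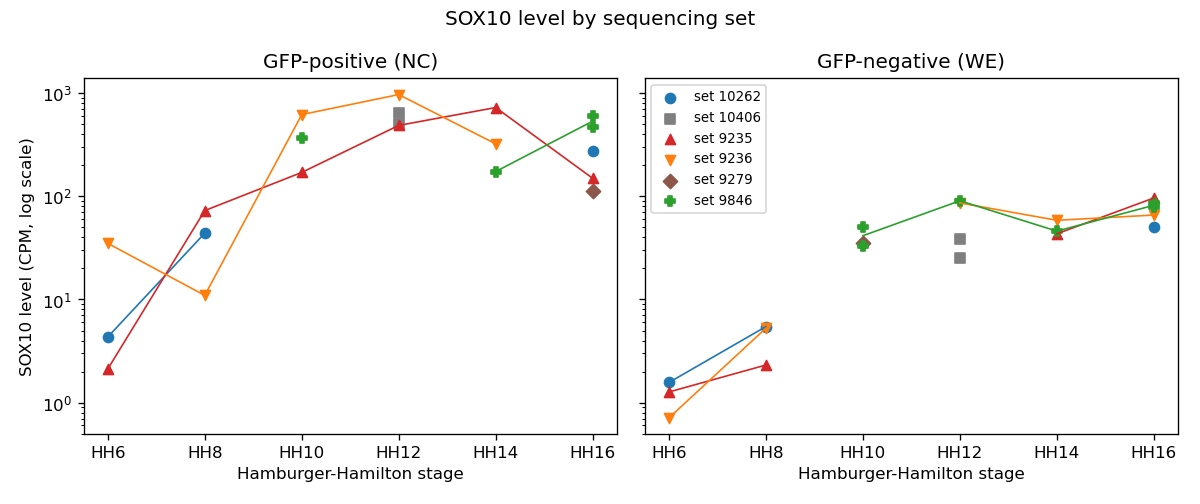
SOX10 level in CPM (log axis) by stage in GFP-positive and GFP-negative cells, with a marker and colour for each sequencing set and lines joining the means of neighbouring stages within a set. The highest GFP-positive level falls at HH14 in set 9235 and at HH12 in set 9236, which has no GFP-positive library at HH16.

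SOX10 varied more between libraries of a group than most genes of a like mean level over the 42 libraries. Its within-group SD of log2(CPM + 1) was 0.881 over the 42 libraries, and 98.4% of the 4291 genes within 1 log2 unit of its mean level had a smaller one, their median being 0.357. The SD was 1.14 among the 21 NC libraries and 0.511 among the 21 GFP-negative libraries. By group it ran from 0.226 in WE_14 to 1.86 in NC_6, with NC_8 at 1.36 and NC_12 at 0.458. Among NC groups the highest library was between 1.99-fold (HH12) and 16.5-fold (HH6) above the lowest, and among GFP-negative groups between 1.35-fold (HH14) and 3.57-fold (HH12).

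Per base of exon, SOX10 ranked far higher among the detected genes at HH12 than at HH6. In TPM, which divides reads by gene length, it averaged 7.39 ± 9.69 at HH6, 24.9 ± 17.4 at HH8, 218 ± 109 at HH10, 386 ± 131 at HH12, 213 ± 132 at HH14 and 192 ± 149 at HH16 in NC (SD, n as above). At HH12 it exceeded between 96.6% and 98.6% of the genes with reads in the NC libraries, and between 52.9% and 81.9% in the GFP-negative libraries. At HH6 these shares were 16.2% to 57.0% in NC and 3.71% to 21.6% in GFP-negative cells.

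The genes with the pattern most like SOX10 were found by Pearson's r of log2(CPM + 1) over the 12 group means, among 10541 tested genes that averaged 10 CPM or more in their highest group. The highest was ENSGALG00000010314 (chromosome 5, 38369408 to 38393355, minus strand; r = 0.972, Spearman's rho = 0.965), and the next ENSGALG00000017119 (chromosome 1, 178822909 to 178879534, minus strand; r = 0.968, rho = 0.986). Their amplitude was far lower than that of SOX10. The group means of ENSGALG00000010314 ran only from 194 CPM in WE_6 to 282 in NC_12, and those of ENSGALG00000017119 from 15.1 in WE_6 to 165 in NC_12. In all, 47 genes passed an r of 0.9, and the median over all genes was 0.00278. The 12 points share libraries and scaling, and r ignores amplitude.

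ENSGALG00000005628 (chromosome 20, 8340728 to 8372146, plus strand) was the third by that measure (r = 0.964) and is added here after its values were seen, because it was the most alike over the 42 single libraries (r = 0.944). Its mean was 1.28 ± 0.880 CPM in NC_6, 5.01 ± 2.68 in NC_8, 86.8 ± 21.4 in NC_10, 167 ± 29 in NC_12, 70.4 ± 32.8 in NC_14 and 74.4 ± 47.2 in NC_16. In GFP-negative cells it was 1.62 ± 1.67 CPM at HH6, 2.82 ± 1.9 at HH8, 11.2 ± 5.14 at HH10, 26 ± 17.2 at HH12, 22.2 ± 9.94 at HH14 and 26.6 ± 6.36 at HH16. Unlike those of SOX10, the libraries of both fractions overlapped for this gene at HH6, HH8 and HH16. Its deviations from the group means followed those of SOX10 across the 21 NC libraries with r = 0.830, and across the 21 GFP-negative libraries with r = 0.575. The median of the former over all 10541 genes was 0.0189, but the gene was picked by its likeness over the same libraries, which already holds these deviations. The ranking depended on the measure: over the single libraries ENSGALG00000010314 was at place 46 and ENSGALG00000017119 at place 4.

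**Figure D4:**
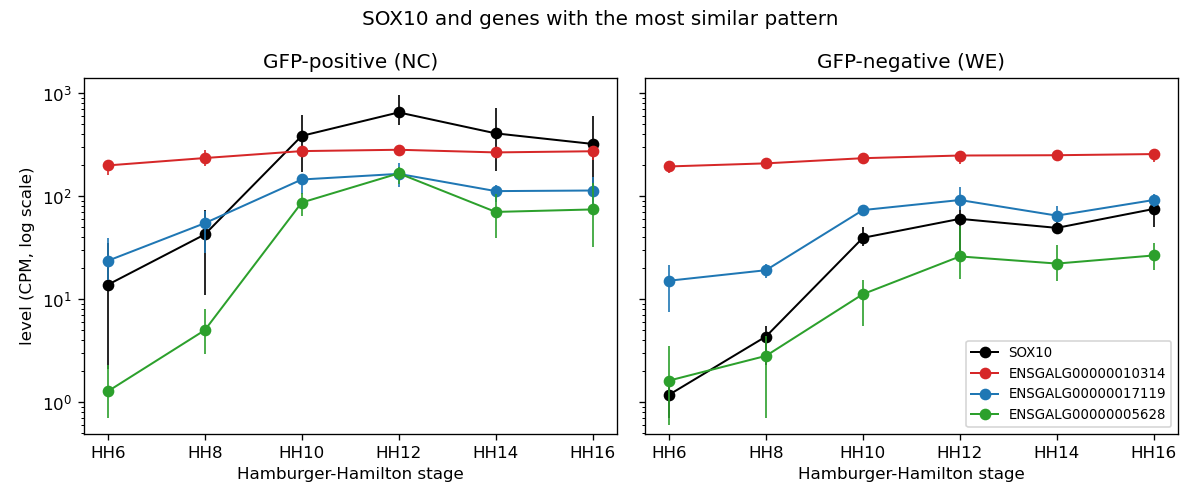
Mean level in CPM (log axis) by stage in GFP-positive and GFP-negative cells for SOX10 and 3 genes of similar pattern, with vertical lines from the lowest to the highest library. ENSGALG00000005628 covers a range of levels nearer to that of SOX10 than ENSGALG00000010314, whose means stay between 194 and 282 CPM.

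The genes beside SOX10 differed far less between the fractions on average, from -0.37 to 0.55 on the log2 scale. Both ends belonged to neighbours with few reads, with SE of 0.40 and 0.57 and highest group means of 1.79 and 0.73 CPM. Another neighbour reached only 1.57 CPM, and those with more reads ran from -0.22 to 0.34. The choice of SOX10 did not use the genes beside it, so they were tested with edgeR's quasi-likelihood test over all 15737 genes. They are the 5 nearest tested genes on each side, on chromosome 1 between 50976162 and 51112478, and lie 2922 to 76077 bases away. Averaged over the stages 1 of the 10 was called (adjusted p below 0.05), against 13.1% of all tested genes, so the share was no higher than the background. That gene, ENSGALG00000041823 on the minus strand 24723 bases before SOX10, was higher in NC by a log2 fold change of 0.34 ± 0.08 (edgeR adjusted p = 0.00346), against 3.09 ± 0.30 for SOX10. SOX10 was chosen for its levels, so its larger value beside the neighbours is a description. The median of the 10 neighbours was 0.15, against -0.00056 over all tested genes. The nearest tested gene, ENSGALG00000012291, lies 2922 bases after SOX10 on the opposite strand. Its mean was 110 ± 21.9 CPM in NC_12 and 77.1 ± 23.3 in WE_12, and its average difference of 0.20 ± 0.16 did not pass (edgeR adjusted p = 0.52).

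At single stages none of the 10 neighbours was called by edgeR, DESeq2 or limma voom, against 0.432%, 2.4%, 1.11%, 2.1%, 0.521% and 0.445% of all tested genes by edgeR from HH6 to HH16. At an unadjusted p below 0.05 edgeR had 1, 0, 1, 4, 1 and 1 of them, against 6.62%, 12.1%, 13%, 10.5%, 7.11% and 11.9% of all tested genes. On the average over stages 2 of the 10 passed that threshold, against 23.4%. The widest differences at a stage were those of ENSGALG00000036897, at -3.31 ± 1.53 at HH6 and 3.25 ± 1.46 at HH14 (edgeR adjusted p = 0.681 and 0.606), a gene named here after its values were seen and whose group means all lay below 1 CPM.

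**Figure D5:**
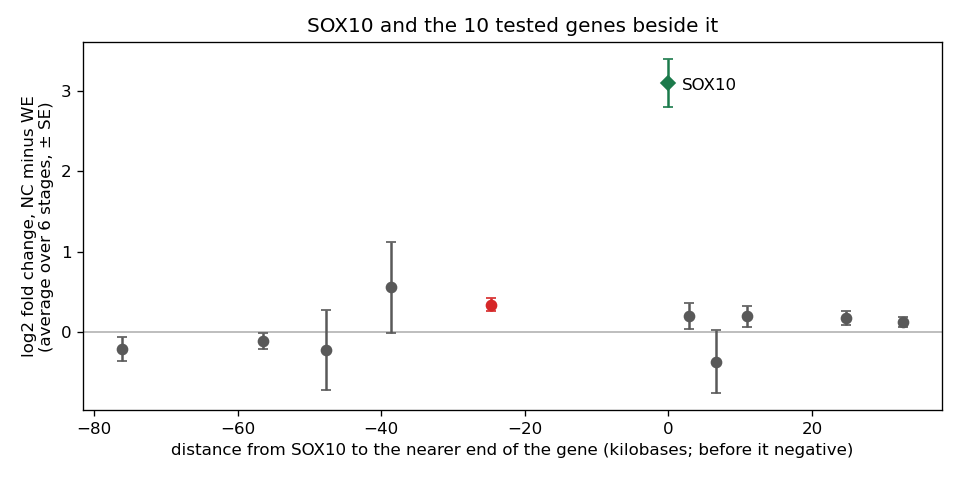
Log2 fold change between GFP-positive and GFP-negative cells averaged over the 6 stages (points, with SE bars) against the distance from SOX10 for the 10 tested genes beside it. SOX10, which was chosen for its levels, stands at 3.09. The neighbours lie between -0.37 and 0.55, both ends belonging to genes with few reads, and the 1 called neighbour (red) lies at 0.34.

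The 8 libraries outside the filtered table give SOX10 in samples that its choice did not use, 1 of each fraction at HH6, HH8, HH10 and HH12. Scaled over all 50 libraries, those labelled NC gave 8.52, 10.1, 103 and 645 CPM from HH6 to HH12. Those labelled GFP-negative gave 5.16, 452, 25.3 and 21.7 CPM. At HH10 and HH12 the left-out libraries of the fractions came from different pools and sequencing sets. Pool and set cannot be told apart from fraction there. The kept GFP-negative libraries that share a pool with NC_10 replicate 3 and NC_12 replicate 5 stood higher. They gave 51.2 CPM (WE_10 replicate 3) and 92.9 CPM (WE_12 replicate 5), scaled over all 50 libraries. The library labelled NC was higher at 3 of the 4 stages and far lower at HH8. The mean difference in log2(CPM + 1) was 0.52 (exact two-sided permutation test within stages, p = 0.75). With 4 stages the smallest possible p is 0.125, so this test could not have passed, and it takes labels that the profiles of several of these libraries go against. Only 1 of the 8 correlated best with its own group over the other genes. The library labelled WE_8 replicate 4 was nearest NC_10 (r = 0.943, against 0.622 for WE_8), and that labelled NC_10 replicate 3 nearest NC_8 (0.958 against 0.856). The library labelled NC_6 replicate 4 held 512123 counted reads and 12 of SOX10, and its highest r with any group was 0.231. The 95% counting interval of its SOX10 level ran from 4.40 to 14.9 CPM. Without HH8 the mean difference was 2.48 over 3 stages (exact two-sided permutation p = 0.25, the smallest possible there). It was 0.49 without HH6, 0.04 without HH10 and -0.91 without HH12, so its size and sign depended on the stages included.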

How the data were processed

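Polyadenylated RNA of sorted cells was sequenced with a directional kit. The deposited values are whole-number counts of reads over exons, summed by gene by featureCounts 1.6.2 on Ensembl release 99 models for GRCg6a, with the option for reverse strand, per the file headers. Before that, the submitters' processing notes list cutadapt 2.10, HISAT2 2.1.0 and SAMtools 1.9. The authors' deposited table also gives each gene's exon length, used for TPM. By the command in the header, multi-mapping reads were left uncounted.

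Kept counts were identical in both tables. Groups came from the labels, and replicates are numbered in accession order. Genes with few reads were removed with filterByExpr, which left 15737 of 24356, and edgeR 4.0.16 (TMM, quasi-likelihood, robust, 12 groups in 1 fit) gave log2 fold changes, with adjusted p-values by Benjamini-Hochberg and a threshold of 0.05. CPM used TMM library sizes, scaled over the 42 kept libraries for kept values and over all 50 for left-out libraries. The standard error is the fold change divided by the root of the F statistic. Alternatives were DESeq2 1.42.0, limma voom (limma 3.58.1), other scalings, filters and library sets, the pool as a block and the sequencing set as a covariate. Since independent collections are not stated, p-values cover library-to-library spread, which may be technical. SOX10, the tests and the rule for named genes were chosen with earlier results of these data known. The rule named the 2 genes most like SOX10 and called neighbours. Gene lists by symbol could not be matched, since 0 of the 24356 identifiers occur in the RefSeq gene table, and were not tested.

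Titles name the pool of heads that a GFP-positive and a GFP-negative library share. Pools were taken as pairs from these titles. Deviations from group means correlated within every pool, with r from 0.102 to 0.787 over the 19 pools. The pools of HH10 gave only 0.102 and 0.15. Libraries of different pools were not compared in this way, so these values have no background. Both libraries of most pools also share a sequencing set. Counting intervals are exact Poisson intervals at 95%.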

Additional observations from a re-analysis of the deposited data

Results flagged for a closer look

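The libraries that the authors left out hold SOX10 reads above every kept GFP-negative library of the same stage in 6 of 8 cases. Those labelled GFP-positive stood at 8.52 CPM (NC_6 replicate 4), 10.1 CPM (NC_8 replicate 4), 103 CPM (NC_10 replicate 3) and 645 CPM (NC_12 replicate 5). Those labelled GFP-negative stood at 5.16 CPM (WE_6 replicate 4) and 452 CPM (WE_8 replicate 4). The last of these was above every kept library of HH6 and HH8 in either fraction. Standing above the GFP-negative libraries was also the pattern of every kept GFP-positive library. NC_8 replicate 4 and NC_10 replicate 3 lay below every kept NC library of their stage (lowest 11.5 and 178 CPM, scaled over all 50 libraries). No group of 4 or 5 kept libraries held a SOX10 level far enough from the others to be singled out by Dixon's test. That test covered the groups of HH12 and HH16 only. The groups of 3 libraries, with NC_6 among them, were not tested in this way.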

How the results depend on the processing

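With the pool as a replicate block the log2 fold change of SOX10 between the fractions was 2.21, 2.96, 2.88, 3.94, 2.80 and 1.87 from HH6 to HH16 and 2.78 on average, and the count of called neighbours did not change. With all 50 libraries, which include those that go against their labels, it was 2.50 at HH6, -1.66 at HH8 and 2.13 on average, the GFP-negative steps were 5.58 from HH6 to HH8 and -1.64 from HH8 to HH10, and 0 of the 10 neighbours was called on average (edgeR). The HH6 difference was 2.45 with limma voom. Leaving out single libraries gave 1.33 to 3.93 for the difference at HH6 and 0.99 to 3.72 for the NC step from HH6 to HH8, where NC_6 replicate 3 gave the extremes of 1.33 and 3.72; the causes were not tested. At HH12 it gave 0 to 1 called neighbours (1 without WE_12 replicate 3), and 1 was called with the sequencing set as a covariate. In the left-out libraries the mean difference was -0.91 without HH12. DESeq2 size factors, total counts, both other filters and DESeq2 changed the sign of none of the SOX10 differences. Of the 6 libraries from the pools named lib, at HH6, HH8 and HH10, 5 were left out and WE_10 replicate 3 was kept; each was nearest a group other than its own, and whether labels were exchanged was not tested. Depth limits the values below HH10, where WE_6 replicate 3 held 3 reads of SOX10. No paired fit was possible for the steps between stages, because no pool spans 2 stages.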
